A study of Mus musculus with 12 samples.

Results

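Mitochondrial ribosomal protein genes were examined in the nucleus accumbens, the ventral part of the striatum. The group comprised every array row annotated with exactly 1 gene symbol that begins with Mrpl or Mrps and a digit, using the row of highest mean where a symbol had several. This gave 74 genes of 18820 with a row of their own, 48 counted in the large and 26 in the small ribosomal subunit. Mrps30 and Mrps18a are named for the small subunit but counted in the large, where their proteins sit. All other members, Mrps36 included, were counted by their symbol. Whether each of their proteins sits in the ribosome was not checked. The symbols Mrpl24, Mrpl43, Mrpl53 and Mrps6 occurred only in rows shared with another gene and were not analysed here.

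The tissue came from C57BL/6N mice killed at 12 weeks of age, after cognitive and behavioural testing. On gestation day 17 their mothers had received poly(I:C), a double-stranded RNA made to imitate a viral infection, by vein at 5 mg/kg, or saline. The study had 6 arrays from each kind of offspring, labelled as biological replicates, with core and shell of the accumbens pooled. The labels state neither litter nor sex nor array batch, so offspring that shared a litter would be counted as independent. The 12 arrays had medians from 4.78 to 4.85 on the log2 scale and correlated pairwise at 0.991 to 0.997, and 8 of 10 listed medium spiny neuron markers were measured, with levels from 6.67 to 11.17.

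Mitochondria keep a ribosome of their own, related to that of bacteria, which translates the respiratory chain proteins encoded in mitochondrial DNA. Its RNA comes from mitochondrial DNA, whereas all of its proteins are encoded in the nucleus, made in the cytosol and imported. Some of these proteins have a bacterial counterpart and others arose in the mitochondrial lineage. Mrpl32 belongs to the large subunit, and its precursor is cleaved by the m-AAA protease of the inner mitochondrial membrane before the protein joins the ribosome.

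Many genes for mitochondrial ribosomal proteins start close to a gene that is read in the opposite direction. For 4 such pairs the stretch between the RefSeq gene bounds is shown, with a member of large difference or small p on 1 side and a measured gene on the other. Other pairs, such as Mrpl37 with Cyb5rl and Mrpl2 with Klc4, also meet this and are not shown. The stretches are RefSeq sequences of GRCm38.p6, written 5′ to 3′ on the member's strand and ending at the base before its gene bound. In the counts of pairs below, the starts lie 159 bases apart for Mrps18c and Helq and 108 for Mrps27 and Ptcd2. Their printed stretches, of 97 and 88 bases, are shorter. Capitals mark a match within the printed stretch to 1 of 3 motifs searched on both strands. These were GCGCANGC, part of the motif of nuclear respiratory factor NRF1, CCGGAAG for ETS factors such as GABP, and AAGATGGC for YY1. Different motifs do not overlap where they are marked, but matches of GCGCANGC overlap each other in Mrpl32. The pairs are Mrpl32 with Psma2 (chr13:14613038-14613241, minus strand), Mrps18c with Helq (chr5:100798662-100798758, plus strand), Mrps27 with Ptcd2 (chr13:99344679-99344766, plus strand) and Mrpl46 with Mrps11, both members (chr7:78783090-78783130, minus strand).
Mrpl32: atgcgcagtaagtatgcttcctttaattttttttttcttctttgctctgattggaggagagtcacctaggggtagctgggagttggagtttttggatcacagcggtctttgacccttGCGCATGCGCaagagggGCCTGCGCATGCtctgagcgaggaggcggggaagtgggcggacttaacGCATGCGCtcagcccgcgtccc
Mrps18c: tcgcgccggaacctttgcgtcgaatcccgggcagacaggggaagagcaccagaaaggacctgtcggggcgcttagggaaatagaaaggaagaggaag
Mrps27: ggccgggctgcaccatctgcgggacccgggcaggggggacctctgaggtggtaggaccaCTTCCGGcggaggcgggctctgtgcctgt
Mrpl46: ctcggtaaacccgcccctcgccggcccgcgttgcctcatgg

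Across the 74 genes the levels in poly(I:C) and control offspring lay close together, and Mrpl32 was the single member past the adjusted threshold, which it missed in 12 of 22 alternative settings. The log2 differences, with controls subtracted from poly(I:C) offspring, ran from -0.26 to 0.20 with a median of -0.012, beside a median of 0.002 over all tested rows. Of the 74, 55 differed by less than 0.1 (74.3%, against 78.1% of all rows), and 43 were lower in value (58.1%, against 49.1%). After Benjamini-Hochberg adjustment over all rows (limma), 1 of 74 members passed the threshold of 0.05, where 0.0613% of all rows did. It was lower (0.033% of all rows), and 0 members passed as higher (0.0283% of all rows). At an unadjusted p under 0.05 there were 13 members (17.6%, against 14.4% of all rows). Of these 7 were lower (9.46%, against 6.57%) and 6 higher (8.11%, against 7.83%). In this fit the shares lay near those of all rows, but in several alternative settings they did not. Quantile normalization of the deposited values changed the split at that level to 11 lower and 6 higher (23% of members, against 14.7% of all rows).

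**Figure D1:**
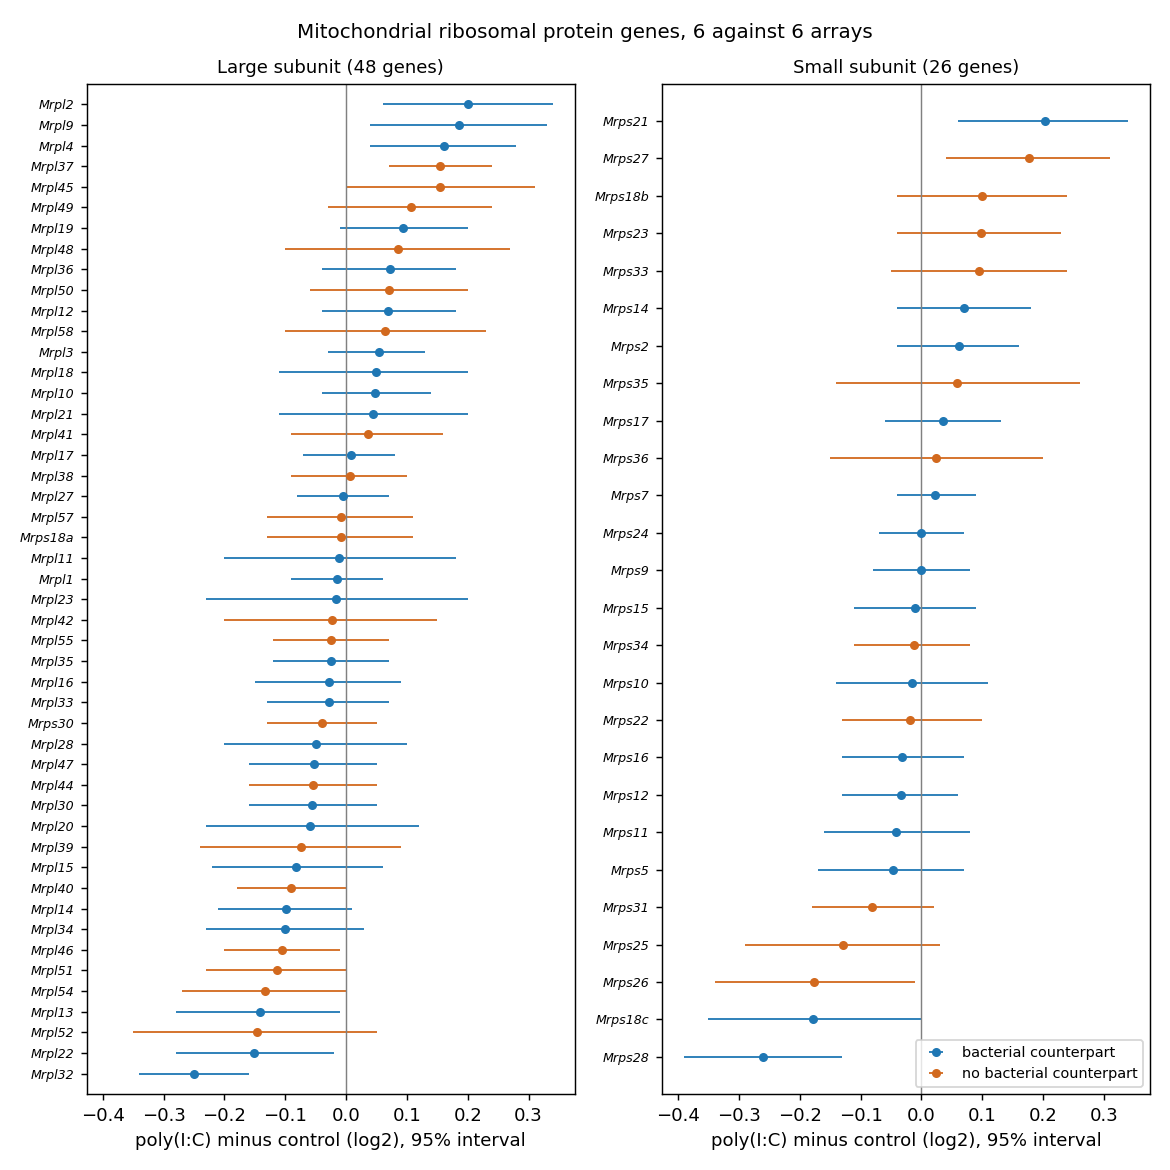
Difference between poly(I:C) and control offspring (log2, horizontal axis) with its 95% interval for each of the 48 large-subunit and 26 small-subunit genes, coloured by whether the protein has a bacterial counterpart. The differences spread to both sides of 0, from -0.26 for Mrps28 to 0.20 for Mrps21, and the interval of Mrpl32 lies from -0.34 to -0.16.

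Mrpl32 stood at 5.42, 5.28, 5.42, 5.45, 5.40 and 5.42 in controls 1 to 6. The values were lower in exposed offspring 1 to 6, at 5.26, 5.16, 5.14, 5.17, 5.03 and 5.13. The groups did not overlap, although control 2, the lowest control, lay just above poly(I:C) 1, the highest exposed array. The control mean was 5.40 ± 0.06 and the poly(I:C) mean 5.15 ± 0.07 (SD, n = 6 each). The level thus fell by 0.25 on the log2 scale, or 1.19-fold, with a 95% interval of the difference from -0.34 to -0.16 and a limma adjusted p of 0.0479. Mrpl32 had the smallest p of the 74 members and the most negative difference after Mrps28, and by p it was number 13 of all 21218 rows, the last of the 13 that passed.

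The call on Mrpl32 was fragile although its size was steady. Leaving out 1 array at a time gave differences from -0.27 to -0.23, and the call was lost when the array left out was control 4, 5 or 6 or one of poly(I:C) 2 to 5 (limma adjusted p from 0.0817 to 0.138). In each of the 12 fits with an array left out Mrpl32 kept the smallest p among the members. Where the call was lost, 0 of all rows passed, and the unadjusted limma p of Mrpl32 lay between 7.41e-05 and 1.04e-04. Both of its group means were also dimmer than 5.47, which is the median over the tested rows, and arrays resolve differences poorly there. The same held for 9 of 74 members in all (12.2%, against 49.4% of all rows).

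Markers of choroid plexus and ependyma, of oligodendrocytes and of cortical neurons moved with the groups, though the ranges of the list means overlapped. The mean of 9 choroid plexus and ependymal markers ran from 5.00 to 6.92 in controls and from 4.79 to 5.08 in poly(I:C) offspring, with 9 of 9 lower in value. The mean of 9 mature oligodendrocyte markers ran from 7.91 to 8.50 and from 7.78 to 7.94, with 9 of 9 lower, and that of 7 cortical neuron markers from 5.36 to 6.64 and from 5.94 to 6.86, with 7 of 7 higher. The mean of 7 septal, pallidal and diencephalic markers ran from 5.74 to 6.70 and from 5.57 to 6.35, with 5 of 7 lower. The group means of the 7 astrocyte and 7 microglia markers differed by 0.02 and -0.03. Of all these markers 1, the myelin gene Mobp at -0.51, passed the adjustment over all rows (limma adjusted p = 0.0411). With the means of the cortical, septal and pallidal, and choroid plexus and ependymal markers as covariates, the difference of Mrpl32 was -0.26 (limma adjusted p = 0.324), and without controls 4 and 6, in which the choroid plexus mean was highest, it was -0.23 (adjusted p = 0.261). In both of these fits 0 of all rows passed, and the unadjusted limma p-values of Mrpl32 were 1.45e-04 and 3.72e-04. The part of oligodendrocyte RNA in the result was not tested. In such bulk tissue fewer cells of a type and less RNA per cell cannot be told apart.

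Beyond Mrpl32, the lower-valued members were led by Mrps28, a small-subunit protein gene, which had the largest difference of all members in either direction. Mrps28 stood at 6.11, 5.81, 5.89, 6.02, 5.91 and 5.84 in control animals 1 to 6 and at 5.69, 5.48, 5.79, 5.64, 5.66 and 5.76 in exposed offspring 1 to 6. Again the groups did not overlap, here with a gap from 5.79 to 5.81. The log2 difference was -0.26 (95% interval -0.39 to -0.13), and it did not pass the adjustment (limma adjusted p = 0.102, unadjusted p = 7.47e-04).

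Mrpl37, a large-subunit gene without a bacterial counterpart, was the mirror image on the higher side. It stood at 7.64, 7.52, 7.65, 7.69, 7.64 and 7.48 in control animals 1 to 6 and at 7.74, 7.81, 7.74, 7.80, 7.72 and 7.75 in exposed offspring 1 to 6. All exposed arrays were above all controls, by a narrow margin from 7.69 to 7.72, and the spread was small in both groups (SD 0.08 and 0.04). The log2 difference of 0.16 (95% interval 0.07 to 0.24) gave a limma adjusted p of 0.141. Mrpl32, Mrps28 and Mrpl37 were the 3 of 74 members whose groups did not overlap (4.05%), where 1.13% of all rows had this property. For 2 of them poly(I:C) offspring were lower (0.523% of all rows) and for 1 higher (0.603% of all rows).

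The other lower-valued members at an unadjusted p under 0.05 came from both subunits. Mrps18c, whose protein has a bacterial counterpart in the small subunit, ran from 6.93 to 7.38 in controls (median 7.03) and from 6.79 to 7.14 in poly(I:C) offspring (median 6.89), a log2 difference of -0.18. Mrps26, without a counterpart in bacteria, ran from 5.91 to 6.28 (median 6.08) and from 5.66 to 6.11 (median 5.90), likewise with a difference of -0.18. The groups overlapped in both genes, with the highest control value in control 1. In the large subunit Mrpl22, whose bacterial counterpart lines the tunnel through which the growing chain leaves, ran from 4.66 to 5.01 and from 4.51 to 4.78, a difference of -0.15. Mrpl13 differed by -0.14 and Mrpl46 by -0.10. The limma adjusted p-values of these 5 genes lay between 0.285 and 0.336, so none of them is called as lower.

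Mrpl52, a large-subunit gene without a bacterial counterpart, had the sixth most negative difference, -0.15. It ran from 6.77 to 7.47 in controls, highest in control 4, and from 6.80 to 7.01 in poly(I:C) offspring, and the interval of the difference included 0 (-0.35 to 0.05). Without control 4 the difference was -0.06.

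Among the higher-valued members, Mrps21 and Mrpl2 had the largest differences, 0.20 each. Mrps21, a small-subunit gene, ran from 7.53 to 7.87 in controls (median 7.76) and from 7.80 to 8.09 in poly(I:C) offspring (median 7.91). Mrpl2, whose bacterial counterpart lies near the site of peptide bond formation, ran from 5.94 to 6.21 (median 6.17) and from 6.12 to 6.42 (median 6.34). The ranges overlapped in both, and the limma adjusted p-values were 0.192 and 0.196. For Mrpl9 the difference was 0.18, for Mrps27, which encodes a protein with pentatricopeptide repeats, likewise 0.18, and for Mrpl4, whose bacterial counterpart also lines the exit tunnel, 0.16. Their adjusted p-values lay between 0.223 and 0.246, and in each of them poly(I:C) 6 fell among the control values, at 5.84, 4.95 and 6.93. With the means of the cortical, septal and pallidal, and choroid plexus markers as covariates, the difference of Mrps27 was 0.03 and that of Mrpl4 0.08.

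**Figure D2:**
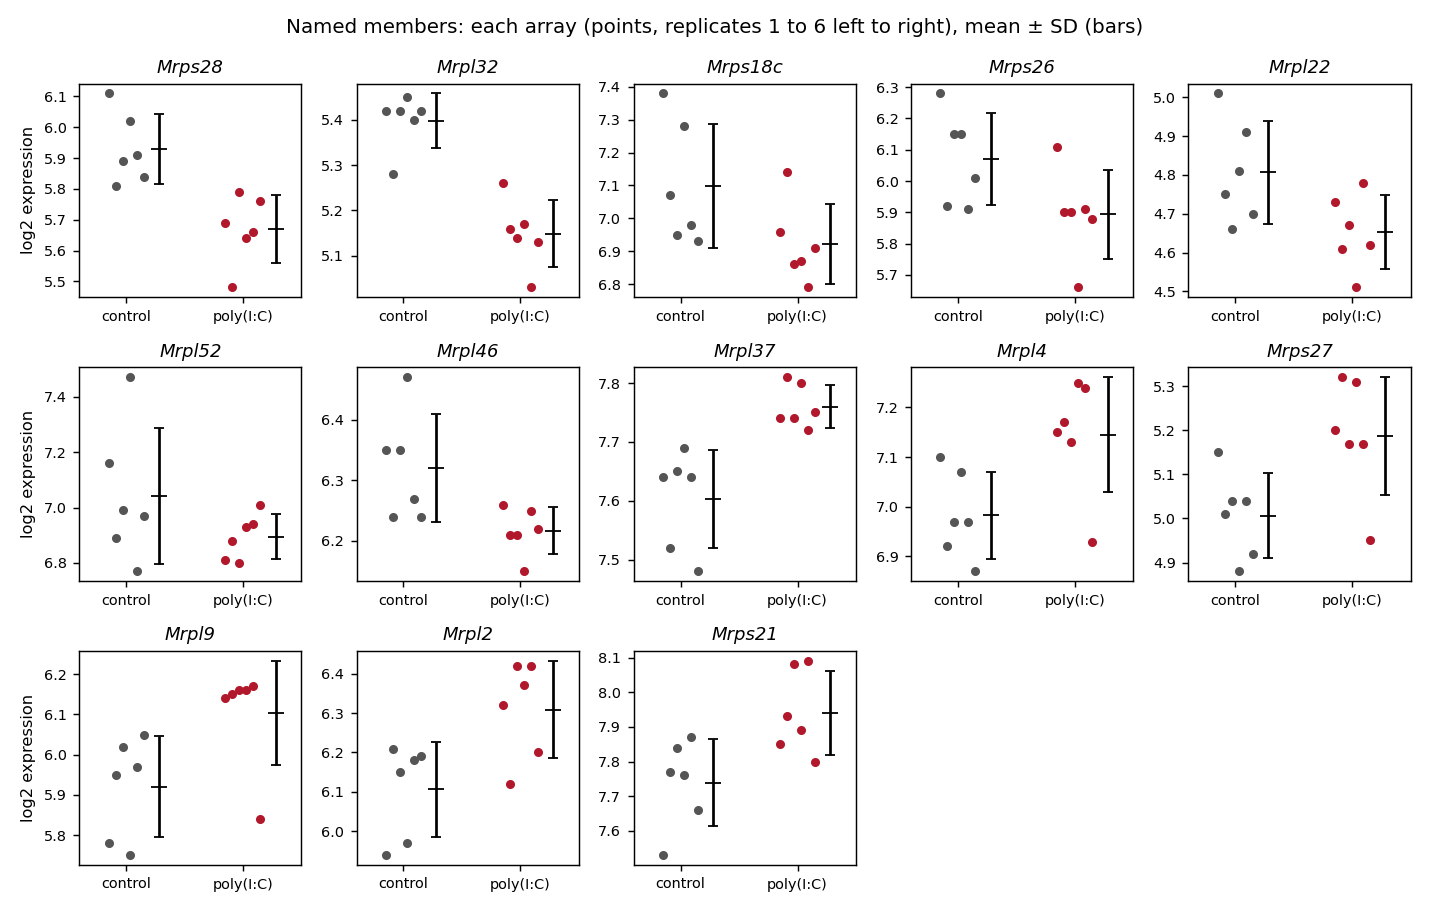
Log2 expression of 13 members on each array (points, replicates 1 to 6 from left to right within a group) with the group mean ± SD (n = 6). The groups separate for Mrps28, Mrpl32 and Mrpl37 and overlap in the other 10 panels, and poly(I:C) 6 lies apart from the rest of its group in Mrpl4, Mrps27 and Mrpl9.

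Some members lie at known functional sites of the ribosome, and those named here had values of either sign, several of them close to 0. They were not a list set beforehand and need not cover every member at these sites. At the exit tunnel Mrpl4 was at 0.16, Mrpl22 at -0.15 and Mrpl23 at -0.02. Near the site of peptide bond formation Mrpl2 was at 0.20 and Mrpl3 at 0.05. In the stalk that recruits translation factors Mrpl10 was at 0.05, Mrpl11 at -0.01 and Mrpl12 at 0.07, and at the decoding site of the small subunit Mrps12 was at -0.03. None of these passed the adjustment (limma), with Mrpl2, Mrpl4 and Mrpl22 at an unadjusted p under 0.05.

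Both subunits had a median near 0. The median difference was -0.016 over the 48 large-subunit genes and -0.006 over the 26 small-subunit genes. At an unadjusted p under 0.05 there were 4 lower and 4 higher members in the large subunit, and 3 lower and 2 higher in the small. The 43 members with a bacterial counterpart had a median of -0.015 with 9 members at that level (20.9%), and the 31 without had a median of -0.009 with 4 (12.9%), beside 14.4% of all rows. The brightest rows were those of Mrpl40 at 8.44, Mrpl10 at 8.17 and Mrpl3 at 8.08 over the 12 arrays, and the dimmest those of Mrps12 at 4.38, Mrpl44 at 4.62 and Mrpl22 at 4.73. Brightness differs between probes, so these levels give no order of abundance.

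The mean level of the members varied from array to array by more than it differed between the groups. The mean over the 74 genes was 6.60, 6.54, 6.51, 6.60, 6.52 and 6.46 in controls 1 to 6 and 6.54, 6.56, 6.55, 6.57, 6.56 and 6.43 in exposed offspring 1 to 6. Its group means were 6.54 ± 0.05 and 6.53 ± 0.05 (SD, n = 6). Both subunits were lowest in control 6 and poly(I:C) 6, with the large-subunit mean at 6.59 and 6.55 and the small-subunit mean at 6.24 and 6.21. In 44 of 74 members (59.5%) poly(I:C) 6 was the lowest array of its group, against 30.4% of all rows. Control 6 was the lowest control in 43.2% of members, against 18.2% of all rows, and controls 1 and 4 were the highest in 32.4% and 35.1%, against 20.7% and 18.8%.

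The count of members in each direction moved with several single arrays. Without poly(I:C) 6, 3 members were lower and 13 higher at an unadjusted p under 0.05 (21.6% of members, against 16% of all rows), in place of 7 and 6, and Mrpl32 was still the single member past the adjusted threshold (log2 difference -0.25, limma adjusted p = 0.0484). Without control 1 or without poly(I:C) 4 the counts were also 3 lower, with 6 higher (12.2% of members in both fits, against 14.8% and 11% of all rows). Without control 4 they were 4 lower and 7 higher (14.9%, against 11.4%) and without poly(I:C) 3 they were 4 and 6 (13.5%, against 12.5%). Without control 6 they were 10 lower and 6 higher (21.6%, against 12.3%).

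**Figure D3:**
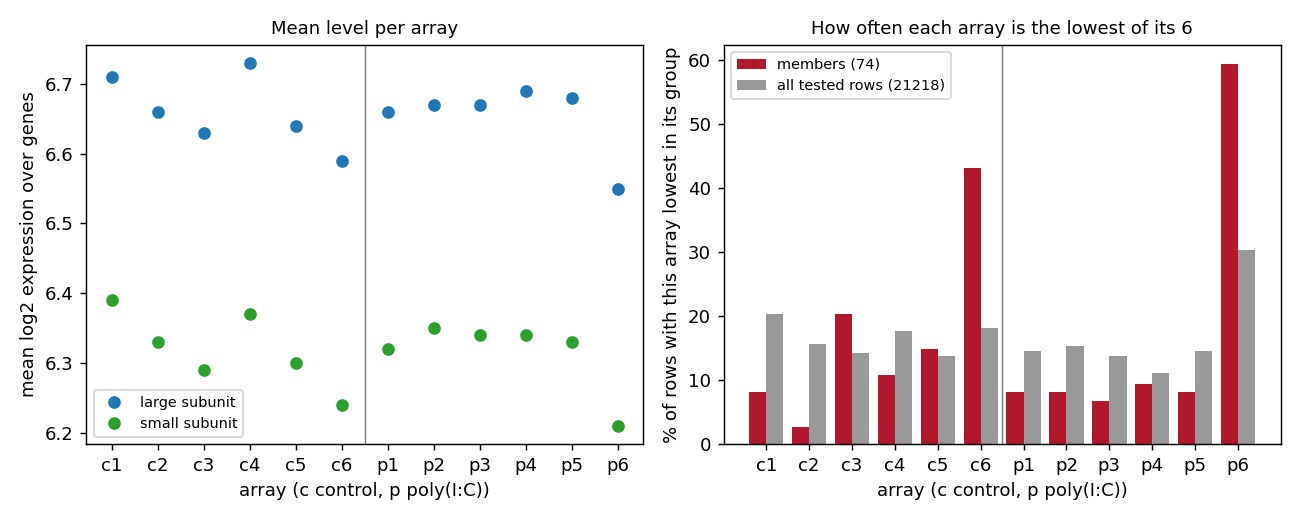
Left, mean log2 expression over the 48 large-subunit and 26 small-subunit genes on each array (c1 to c6 controls, p1 to p6 poly(I:C) offspring); right, percent of the 74 members and of all 21218 tested rows in which that array is the lowest of its group of 6. Arrays c6 and p6 have the lowest means of their groups for both subunits, and p6 is the lowest of its group in 59.5% of members.

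Genes that start back to back with a member offered a further readout. Of 65 members with a RefSeq promoter entry, 22 (33.8%) had a start on the opposite strand within 500 bases upstream, against 10.9% of 27025 genes. The pair Mrpl46 and Mrps11 counts from either side. The difference of the neighbour had the same sign as that of the member in 8 of the 19 cases with a measured neighbour. Of the 19 neighbours 8 had an unadjusted p under 0.05, where 14.4% of all rows did, and 0 passed the adjustment (limma). Mrpl46, itself a member counted above, is among the neighbours at that level, so they are not a set apart from the members.

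Psma2, a proteasome subunit gene that starts 205 bases from Mrpl32, was also lower in value. It stood at 7.26, 7.23, 7.13, 7.14, 7.24 and 7.20 in control animals 1 to 6 and at 7.20, 7.18, 7.09, 7.11, 7.08 and 6.86 in exposed offspring 1 to 6. The groups overlapped, poly(I:C) 6 was lowest, and the log2 difference of -0.12 did not pass the adjustment (95% interval -0.23 to -0.00, limma adjusted p = 0.334). The other close gene of Mrpl32 in the RefSeq table, the pseudogene Gm32526, was not analysed here. In the pair of members with starts 42 bases apart, Mrpl46 was at -0.10 and Mrps11 at -0.04.

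Several other pairs had differences of opposite sign. Mrps18c at -0.18 faced the DNA helicase gene Helq at 0.10, and Mrpl40 at -0.09 faced the histone chaperone gene Hira at 0.11. Mrpl49 at 0.11 faced Fau, which encodes a ribosomal protein of the cytosol, at -0.12. Mrpl37 at 0.16, Mrps27 at 0.18 and Mrpl2 at 0.20 faced Cyb5rl at -0.02, Ptcd2 at -0.03 and Klc4 at -0.01. Mrps5 at -0.05 faced Zfp661 at 0.12. Pairs of the same sign included Mrpl50 at 0.07 with Zfp189 at 0.18 and Mrpl21 at 0.05 with Ighmbp2 at 0.10. Zfp661, Zfp189 and Ighmbp2 each had an unadjusted limma p under 0.05.

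**Figure D4:**
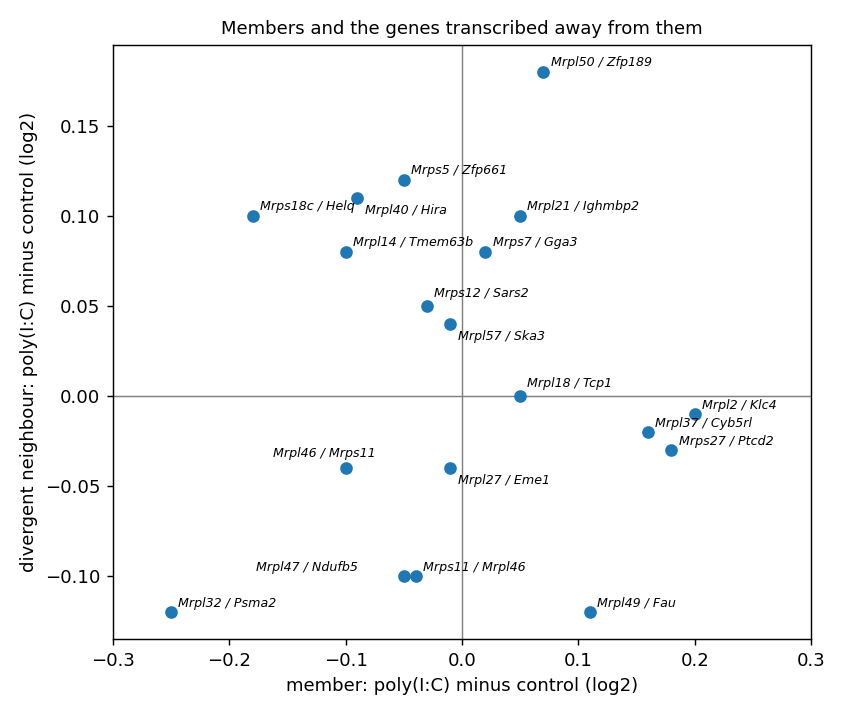
Log2 difference between poly(I:C) and control offspring of each member (horizontal axis) and of the measured gene that starts within 500 bases on the opposite strand (vertical axis), 19 points labelled member / neighbour. Mrpl32 and Psma2 lie at -0.25 and -0.12, while members and neighbours share a sign in 8 of the 19 cases.

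Promoters of members held the 3 motifs more often than promoters at large, as counted in windows of 300 bases from 250 before to 50 after the start. GCGCANGC was found in 22 of 65 members (33.8%, against 11.2% of all genes with an entry), CCGGAAG in 24 (36.9%, against 9.93%) and AAGATGGC in 12 (18.5%, against 3.19%). The printed sequence of Mrpl32 holds 5 matches of GCGCANGC on either strand, the first of which, GCGCATGC, lies 87 to 80 bases before the start and the last, GCATGCGC, 22 to 15 bases before it. Its window also holds AAGATGGC, outside the printed stretch. The window of Mrps18c holds CCGGAAG and that of Mrps27 AAGATGGC, both outside the printed stretches. The median difference of members with and without a motif was 0.004 and -0.016 for GCGCANGC, -0.007 and -0.016 for CCGGAAG and -0.005 and -0.015 for AAGATGGC. A match is a description of the letters in this window.

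A list of 8 regulators of nuclear genes for mitochondrial proteins gave 0 calls over all rows (limma), with 4 at an unadjusted p under 0.05 (50%, against 14.4% of all rows). Of the 8, Gabpa, Gabpb1, Nrf1 and Yy1 encode parts of the factors whose motifs were searched. Gabpb1 and Gabpa, which encode the subunits of GABP, were at -0.11 and -0.12 and Yy1 at -0.16, while Ppargc1a, the coactivator of mitochondrial biogenesis, was at 0.17 and Nrf1 at 0.08. The nuclear receptor gene Esrra was at 0.07 and the coactivator genes Ppargc1b and Pprc1 at 0.03 and 0.01. The limma adjusted p-values of Gabpb1, Gabpa, Yy1 and Ppargc1a lay between 0.195 and 0.326.

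The rest of the mitochondrial translation system also gave 0 calls over all rows (limma). Among 13 initiation, elongation and release factors and their helpers 0 reached an unadjusted p under 0.05, where 14.4% of all rows did. Their median difference was 0.016, with 8 of 13 higher in value. The initiation factor Mtif3 was at 0.08, the membrane insertase Oxa1l at 0.05 and the elongation factor Gfm1 at -0.07. Among 17 assembly and RNA modification factors 1 reached that level (5.88%, again against 14.4%), the GTPase Mtg2 at 0.15. The methyltransferases Mrm2 and Mrm3 were at -0.05 and 0.10 (median of the list 0.015, 10 of 17 higher in value). Among 16 aminoacyl-tRNA synthetases of mitochondria 0 did, with Aars2 at 0.08, Yars2 at -0.11 and Vars2 at 0.06. The median of this list was 0.029, with 13 of 16 higher in value.

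Of 8 genes for the transcription and upkeep of mitochondrial DNA 2 were higher at an unadjusted p under 0.05 (25%, against 7.83% of all rows), the transcription factor Tfb2m at 0.17 and the polymerase Polg at 0.12, with Tefm at 0.07 (median 0.042). The protease that cleaves the Mrpl32 precursor showed no call either. Its subunit genes Afg3l2 and Afg3l1 were at 0.08 and 0.06 and its partner Maip1 at 0.04. Of the 4 listed genes 0 had an unadjusted p under 0.05, where 14.4% of all rows did. Of the subunits named outside the Mrpl and Mrps series, Dap3 was at -0.08, Ptcd3 at 0.04 and Chchd1 at -0.04, again with 0 of 3 at that level. The messages that mitochondrial ribosomes translate had no row with a single symbol and were not analysed here.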

How the data were processed

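Mouse Gene 1.1 ST arrays were read as log2 values, which the authors deposited as 1 table of 35556 rows; the submitters' processing notes name RMA and Partek 6.6. RMA corrects background, quantile-normalizes probes and summarises them, so a shift common to most transcripts would be removed. The settings of RMA are not stated in the labels. The platform annotation gave 1 gene symbol to 21218 rows, several to 1881 and none to 12457; all 74 members matched the RefSeq gene table of GRCm38.p6 by gene identifier.

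Using R 4.3.3 and limma 3.58.1, all 21218 rows were fitted with lmFit and eBayes on exposure group alone (10 residual and 3.94 prior degrees of freedom), without further normalization or filter. Tests were two-sided, with Benjamini-Hochberg adjustment over these rows at 0.05. The test was checked on simulated data. Named members are Mrpl32, the 6 largest differences and the 5 smallest p-values in each direction, and members whose groups do not overlap; the 3 brightest and the 3 dimmest rows and up to 3 genes of each pathway list are also named. Mrpl11, Mrpl12, Mrpl13, Mrpl18, Mrpl21, Mrpl23, Mrpl49, Mrpl50, Mrpl51, Mrps5, Mrps11 and Mrps30 were chosen after their values were seen. So were Mobp, Gabpa, Nrf1, Esrra, Ppargc1b, Pprc1 and the divergent neighbours other than Psma2. The NRF1 motif was shortened after a longer form had been searched, which fewer promoters of members and of all genes held. The members and lists were chosen with earlier results of these data known. The arrays' number limits the precision.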

Additional observations from a re-analysis of the deposited data

Results flagged for a closer look

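In 3 of the 26 groups of 6 arrays examined (13 named members, 2 groups each), the most distant array lay so far from the nearest of the others that Dixon's 95% critical value was passed; chance alone gives about 1 in 20. Mrpl32 was at 5.28 in control 2, where the other controls lay between 5.40 and 5.45. Without that array the difference of Mrpl32 was -0.27 (limma adjusted p = 0.0435). Poly(I:C) 6 was the array concerned in Mrpl4, at 6.93 against 7.13 to 7.25, and in Mrpl9, at 5.84 against 6.14 to 6.17.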

How the results depend on the processing

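Of 23 alternative settings, Mrpl32 could be fitted in 22, with differences from -0.27 to -0.23, and it passed the adjusted threshold in 10. The count of members past it was 0, in place of 1, with dim rows left out (Mrpl32 itself then untested), over all rows of the table (Mrpl32 -0.25, limma adjusted p = 0.0919), with an intensity trend (-0.25, 0.0514), with the 3 tissue means as covariates (-0.26, 0.324), without controls 4 and 6 (-0.23, 0.261) and with the replicate block (-0.25, 0.128). It ran from 0 to 1 when single arrays were left out. The labels do not say that replicate numbers pair the arrays. Same-numbered deviations correlated at -0.201 to 0.269, and 2 of 12 arrays correlated best with their own number, which gives no sign of pairing but cannot exclude it. Calls over all rows numbered 13, but 38 after quantile normalization, 140 with array weights and 20 with dim rows left out, 0 over all rows of the table, with the replicate block, with tissue means as covariates and without controls 4 and 6, and 0 to 84 with an array left out. Array weights gave 4 lower and 9 higher members at an unadjusted p under 0.05 (17.6%, against 16.9% of all rows). With the tissue means there were 9 lower and 4 higher (17.6%, against 9.82%). The median difference was then -0.050 over the members and -0.004 over all rows. The replicate block gave 9 and 7 (21.6%, against 13.2%) and median centring 10 and 6 (21.6%, against 14.3%). Leaving dim rows out gave 5 and 5 (15.4%, against 18%). The causes were not tested. The other 12 named members passed in 0 settings and none changed sign. Of these, Mrps27 moved from 0.18 to 0.03, Mrpl4 from 0.16 to 0.08 and Mrpl52 from -0.15 to -0.08 with the tissue means, and Mrpl52 to -0.09 with array weights and to -0.06 without control 4 or without controls 4 and 6; the other 9 moved by at most 1.5 times.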

Other observations

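For 12 of the 74 members the array held further rows of the same symbol, 13 in all, and 7 of these shared the sign of the row used. Mrpl51 was at -0.11 on the row used and 0.14 on the other, Mrpl12 at 0.07 and -0.10, and Mrps30 at -0.04 and 0.11. Of these 13 further rows 0 passed the adjusted threshold (limma), and 1, of Mrpl18 at 0.17, had an unadjusted p under 0.05. Mrpl32, Mrps28 and Mrpl37 had a single row each.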
